A study of Rattus norvegicus with 12 samples.

Results

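Fanca and 9 other genes of the Fanconi anemia pathway were followed in the injured pubocaudalis, a muscle of the rat pelvic floor. The 10 genes were Fanca, Fancb, Fancc, Fancd2, Fance, Fancf, Fancg, Fanci, Fancl and Fancm, taken by gene symbol from the 30206 genes of the count table, and all 10 had enough counts to be tested. Fanca was chosen by its normalized CPM, that is, by its difference between lactating and non-lactating rats at 3 weeks, so that difference is described here without a test. The question was whether its partners moved with it or whether it moved without them.

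The Fanconi anemia pathway repairs interstrand crosslinks, lesions that tie the strands of DNA together and block replication forks. A core complex on chromatin, built from modules around Fanca, Fancb, Fancc and Fancm, acts as a ubiquitin ligase on the Fancd2 and Fanci pair, and the ubiquitinated pair then brings nucleases and homologous recombination factors to the lesion. The pathway is best known from dividing cells, in particular blood stem cells, whereas the nuclei of muscle fibers do not divide.

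Sprague-Dawley rats, 3 months old, were sequenced in 4 groups. All of them were pregnant, received simulated birth injury (SBI, distention of the vagina with a balloon shortly before delivery) and gave birth, so no group was uninjured or never pregnant. In 1wk SBI and 3wk SBI the pups were taken away at birth and the muscle was collected at 1 or 3 weeks. In 1wk SBI + Lac and 3wk SBI + Lac the dams nursed, which in the 3-week group reaches the time of weaning. Each group had 3 libraries, and each library held the pooled RNA of 2 different rats, so the spread between the 3 libraries is that between pools and not between single rats.

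The unit of each level is normalized CPM, the count relative to the TMM-adjusted size of its library, and differences are log2 fold changes of lactating over non-lactating rats from edgeR's quasi-likelihood fit over all 12 libraries. A gene was called where its Benjamini-Hochberg adjusted p was under 0.05 and its absolute log2 fold change was over 1. Total counts ran from 10082734 to 75634391 per library, and the shallowest were 3wk SBI replicate 1 and 3wk SBI + Lac replicate 3. The 1-week values were whole numbers, whereas 26.6% to 44.0% of the 3-week values had decimals, so comparisons between the time points also compare these forms of counting. Myofiber genes were high in every library, with a summed level of 71630 normalized CPM or more over 7 markers.

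Fanca, the largest subunit of its module of the core complex, was detected in 11 of the 12 libraries. In 1wk SBI its level was 1.01, 0.894 and 0.726 normalized CPM in the 3 pools, and in 1wk SBI + Lac it was 2.00, 1.22 and 1.82. In 3wk SBI it was 0, 0.619 and 0.468, and in 3wk SBI + Lac it was 4.98, 5.40 and 4.84. From low to high, 3wk SBI came first, then 1wk SBI, then 1wk SBI + Lac, and 3wk SBI + Lac was highest, and no neighbouring groups in this order overlapped. The 0 came from 3wk SBI replicate 1, in which a count of 0 allows a level of up to 0.322 normalized CPM (3 counts, counting error only).

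The 3 pools of 3wk SBI + Lac held 152.992, 332.243 and 44 estimated counts of Fanca, so all 3 libraries carried the high level. With every 3-week library thinned to the depth of the shallowest, Fanca kept 0, 8 and 5 counts in 3wk SBI against 50, 48 and 38 in 3wk SBI + Lac. The group means were 0.362 ± 0.323 and 5.07 ± 0.292 normalized CPM (SD, n = 3 pools each), a log2 fold change of 3.57 with a standard error of 0.44, or 11.9-fold. Only 12 of the 14599 genes tested had a larger positive change at that time, which restates how the gene was chosen. In bulk RNA, more cells that express Fanca and more Fanca RNA per cell cannot be told apart.

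The 1-week libraries were not used to choose Fanca, and there its direction was the same without passing the test. The means were 0.877 ± 0.142 in 1wk SBI against 1.68 ± 0.407 in 1wk SBI + Lac (SD, n = 3 pools each). The pools did not overlap, but the log2 fold change of 0.93 (SE 0.37, 95% interval 0.14 to 1.73) had an adjusted p of 0.193. At that time 0.253% of the genes tested were called, and every lactating pool lay above every non-lactating pool in 14.3% of them.

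**Figure D1:**
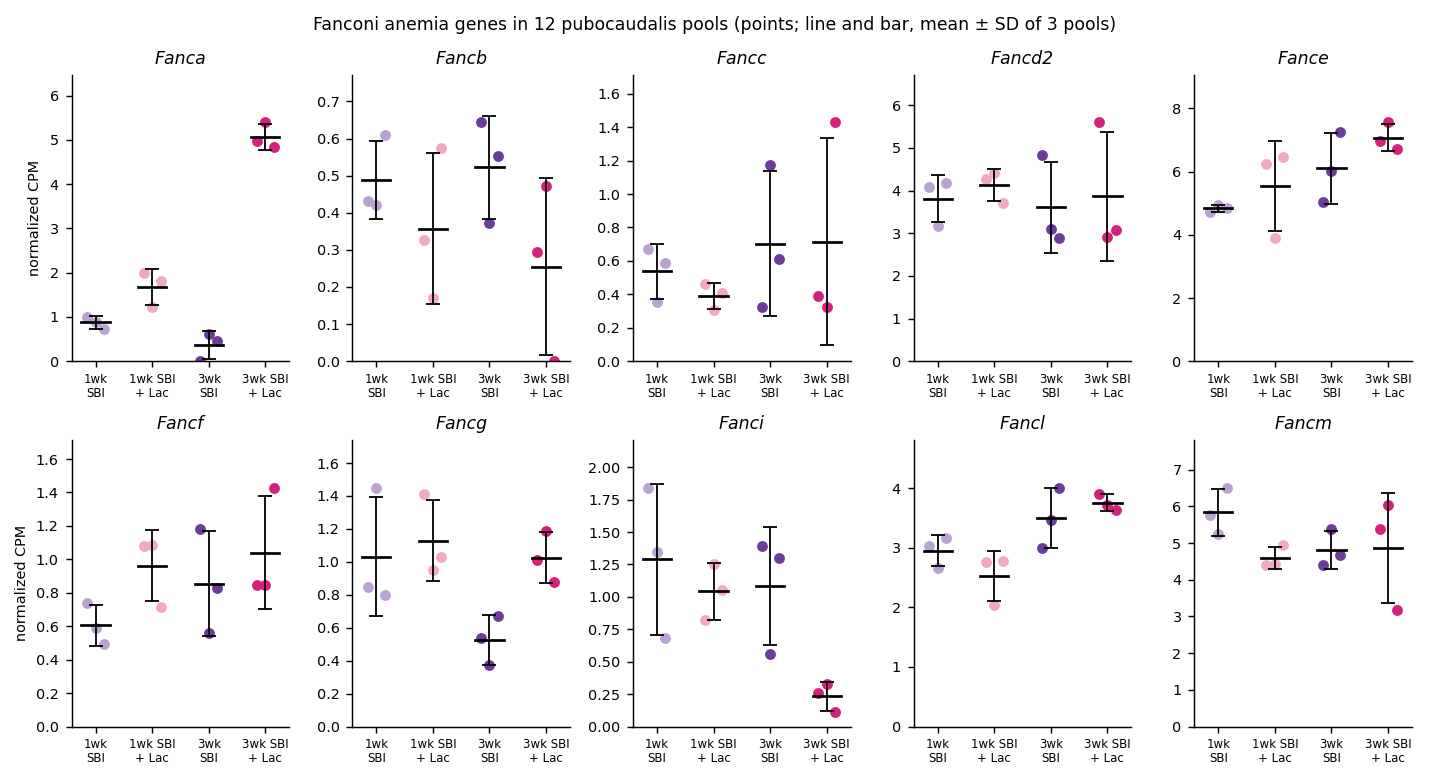
Level of each Fanconi anemia gene in normalized CPM (vertical axis, from 0, its own scale for each gene) in the 4 groups (horizontal axis), with 1 point per pool and the mean and SD of 3 pools as line and bar. Fanca reached 4.84 to 5.40 in 3wk SBI + Lac against 0 to 0.619 in 3wk SBI, whereas Fanci was lowest in 3wk SBI + Lac and most other genes overlapped between the groups.

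The nearest partners of Fanca in the complex were examined first. Fancg binds Fanca directly and holds it in the complex. Its level in 3wk SBI was 0.536, 0.372 and 0.672 normalized CPM, and in 3wk SBI + Lac it was 1.01, 1.19 and 0.879, without overlap. The log2 fold change was 0.92 (SE 0.42, 95% interval 0.03 to 1.81), and with an adjusted p of 0.221 it was not called. It rested on few reads, with 5 and 6.083 counts in 3wk SBI replicates 1 and 2 and 8 in 3wk SBI + Lac replicate 3. Fancg differed from Fanca in the form of this difference, since its 3wk SBI + Lac level was close to those of 1wk SBI (0.849, 1.45 and 0.797) and 1wk SBI + Lac (1.41, 0.949 and 1.03), and only the 3wk SBI pools lay below all others. From 1wk SBI to 3wk SBI its log2 fold change was -0.90 (SE 0.40, adjusted p = 0.212, edgeR).

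Faap20, the small ubiquitin-binding protein that completes the module of Fanca and Fancg, showed values of the same direction. It averaged 1.14 ± 0.647 normalized CPM in 3wk SBI against 1.92 ± 0.151 in 3wk SBI + Lac (SD, n = 3 pools each). The pools did not overlap, and the log2 fold change of 0.57 (SE 0.36) had an adjusted p of 0.385 in edgeR. At 1 week its log2 fold change was -0.19 and the pools overlapped.

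The module of Fancb, Fancl and Faap100 carries the ligase activity, with Fancl as its catalytic RING subunit and Fancb and Faap100 as its scaffold. Fancl measured 3.00, 3.47 and 4.01 normalized CPM in 3wk SBI against 3.91, 3.72 and 3.63 in 3wk SBI + Lac, so that the lactating pools lay inside the range of the others. Its log2 fold change was 0.08 with a 95% interval of -0.37 to 0.53. Fancb was at 0.644, 0.372 and 0.552 in 3wk SBI against 0.293, 0.472 and 0 in 3wk SBI + Lac, where the 0 belongs to the shallowest pool of that group and allows up to 0.330 normalized CPM. Faap100 had a log2 fold change of -0.28 (SE 0.19, adjusted p = 0.402, edgeR).

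Fancc, Fance and Fancf form the module that recruits Fancd2 to the ligase. Fance measured 5.04, 6.01 and 7.26 normalized CPM in 3wk SBI against 6.97, 7.56 and 6.71 in 3wk SBI + Lac, with a log2 fold change of 0.19 (95% interval -0.23 to 0.62). Fancf went from 1.18, 0.557 and 0.828 to 0.847, 0.846 and 1.43, and Fancc from 0.322, 1.18 and 0.612 to 0.391, 0.325 and 1.43. Both pairs of groups overlapped, and the high value of 1.43 in each gene came from 3wk SBI + Lac replicate 3, a shallow library. Without that library the log2 fold change of Fancc was -0.99 in place of -0.24 and that of Fancf was 0.04 in place of 0.25, and neither was called.

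Fancm, the DNA translocase that lands the complex on the fork, measured 4.40, 5.39 and 4.67 normalized CPM in 3wk SBI against 5.37, 6.03 and 3.19 in 3wk SBI + Lac. The log2 fold change was 0.07 (95% interval -0.38 to 0.51). At 1 week its lactating pools, at 4.39, 4.44 and 4.95, all lay below the non-lactating ones, at 5.77, 5.25 and 6.51. That difference of -0.34 on the log2 scale (SE 0.20) had an adjusted p of 0.359 in edgeR, and 14.1% of the genes tested had every lactating pool below every non-lactating pool at that time.

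The substrates of the ligase did not follow Fanca. Fancd2 had 4.83, 3.10 and 2.89 normalized CPM in 3wk SBI against 5.60, 2.91 and 3.08 in 3wk SBI + Lac, and its log2 fold change of 0.17 had a 95% interval of -0.42 to 0.76. Fanci, the partner with which Fancd2 forms a clamp on DNA, had 1.39, 0.557 and 1.30 in 3wk SBI against 0.260, 0.325 and 0.110 in 3wk SBI + Lac. Each of these 3 lactating pools was below all 9 other pools, since Fanci ran from 0.679 to 1.84 in 1wk SBI and from 0.820 to 1.25 in 1wk SBI + Lac.

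The 3-week log2 fold change of Fanci was -2.02 (SE 0.53, 95% interval -3.14 to -0.89), with an adjusted p of 0.0561 that just missed the cutoff. Against 1wk SBI + Lac, the level of 3wk SBI + Lac differed by -1.96 on the log2 scale (SE 0.52, adjusted p = 0.0625, edgeR). These comparisons share the 3wk SBI + Lac pools, in which Fanci had 29 counts in all. With DESeq2 on all 12 libraries, Fanci was called at 3 weeks with a log2 fold change of -2.03 and an adjusted p of 0.0113, and in edgeR it was called without 3wk SBI replicate 2 (adjusted p = 0.0354) or without 1wk SBI replicate 3 (adjusted p = 0.0415).

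Counted together, 0 of the 9 partners were called at 3 weeks, when 0.740% of the genes tested were called. Of the 9 log2 fold changes, 6 were above and 3 below 0, and 2 had an unadjusted p under 0.05, those of Fancg and Fanci, where 21.1% of the genes tested had one. The median of the 9 was 0.08, beside -0.02 over all genes tested. Apart from the chosen Fanca, 1 partner lay wholly above in 3wk SBI + Lac and 1 wholly below, where 11.9% and 10.4% of the genes tested did so, so these counts are near the background.

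Among the 9 partners the highest upper bound of a 95% interval at 3 weeks was 1.81, for Fancg, while the log2 fold change of Fanca was 3.57. The 3-week log2 fold change of Fanca was therefore not matched by that of a partner within these intervals. The intervals of Fancc, Fancf and Fancg still reach past 1 and allow smaller changes. As Fanca was picked for its size, this is a description of the values and not a test of the difference.

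**Figure D2:**
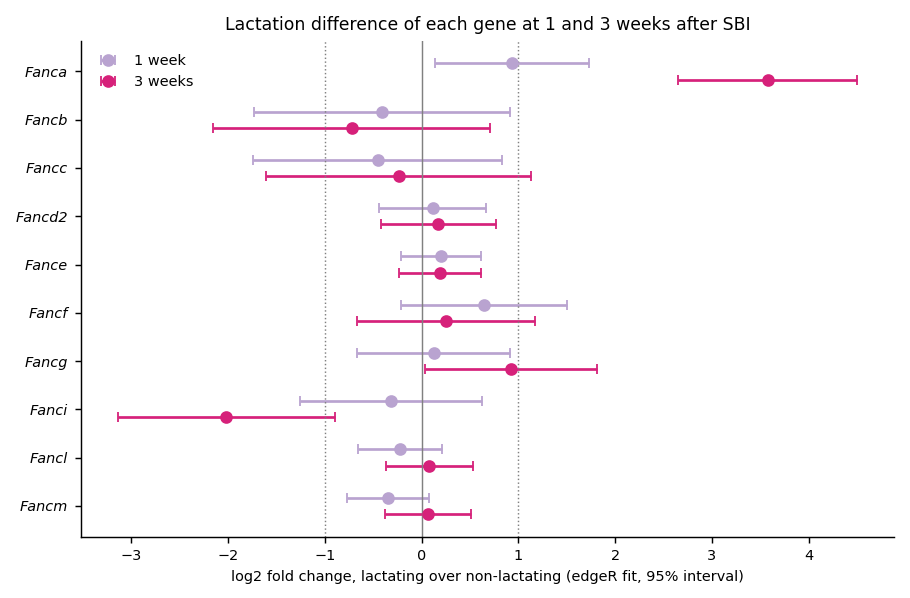
Log2 fold change of lactating over non-lactating rats (horizontal axis, points with 95% intervals of the edgeR fit) for each Fanconi anemia gene (vertical axis) at 1 and 3 weeks, with dotted lines at the fold cutoff of 1 in either direction. At 3 weeks Fanca stands at 3.57 and Fanci at -2.02, and the other genes lie between -0.72 and 0.92.

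At 1 week, 0 of the 10 members were called. For the 9 partners the median log2 fold change was -0.22, beside -0.004 over all genes tested, and without 1wk SBI replicate 1 it was -0.0022. Of the 9 values, 4 were above and 5 below 0, and none had an unadjusted p under 0.05, while that of Fanca was 0.0247 and 18.9% of the genes tested had one under 0.05. DESeq2 on all 12 libraries called 0 members at this time as well, where it called 188 of all genes. Fancf had the highest value, 0.65 (SE 0.40, adjusted p = 0.396, edgeR), from 0.737, 0.590 and 0.492 normalized CPM in 1wk SBI against 1.08, 1.08 and 0.717 in 1wk SBI + Lac. The other partner values at this time ran from -0.46 for Fancc to 0.20 for Fance.

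Whether the lactation difference changed from 1 to 3 weeks was tested as an interaction. In edgeR and in DESeq2, 0 of the 9 partners were called, and edgeR called 0.00685% of the genes tested, a single gene. The count of DESeq2 over all genes was not taken for this comparison. In edgeR 1 partner had an unadjusted p under 0.05, as did 4.42% of the genes tested. The value for Fanci was -1.70 (SE 0.68, unadjusted p = 0.0252, adjusted p = 0.999, edgeR). Fanca, again a description because it shares the 3-week libraries, had 2.64.

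Over time, 0 of the 9 partners were called without lactation and 0 with it, where 1.46% and 0.774% of the genes tested were. Unadjusted p under 0.05 were found for 1 and 2 partners and for 21.2% and 18.1% of the genes tested. DESeq2 called 0 and 1 of the 9 partners, and its count over all genes was not taken for these comparisons. Fance was higher at 3 weeks in both, by 0.37 (SE 0.20, adjusted p = 0.307) without and 0.36 (SE 0.20, adjusted p = 0.351) with lactation, both from edgeR. Fancl had 0.57 (SE 0.21, adjusted p = 0.162) with lactation, from 2.75, 2.03 and 2.77 to 3.91, 3.72 and 3.63 normalized CPM. Fanca moved opposite ways, by -1.05 on the log2 scale from 1wk SBI to 3wk SBI and by 1.60 from 1wk SBI + Lac to 3wk SBI + Lac.

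The promoters of Fanca, of Fancg, the partner nearest to it in value, and of Fanci, which differed in the other direction, are shown to compare genes that did not move together. Each covers 250 bases before and 50 after the RefSeq gene start in the GRCr8 rat assembly, read along the strand of the gene, and capitals mark matches to the 3 motifs described next. Fanca lies at chr19:68270970-68271269 on the minus strand, Fancg at chr5:62035738-62036037 on the minus strand and Fanci at chr1:142736403-142736702 on the plus strand.
Fanca: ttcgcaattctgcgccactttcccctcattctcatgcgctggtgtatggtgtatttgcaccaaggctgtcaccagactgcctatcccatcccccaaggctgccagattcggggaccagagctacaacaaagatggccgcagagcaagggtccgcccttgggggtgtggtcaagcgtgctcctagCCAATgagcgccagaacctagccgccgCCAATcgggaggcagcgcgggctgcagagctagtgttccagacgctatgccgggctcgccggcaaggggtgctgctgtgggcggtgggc
Fancg: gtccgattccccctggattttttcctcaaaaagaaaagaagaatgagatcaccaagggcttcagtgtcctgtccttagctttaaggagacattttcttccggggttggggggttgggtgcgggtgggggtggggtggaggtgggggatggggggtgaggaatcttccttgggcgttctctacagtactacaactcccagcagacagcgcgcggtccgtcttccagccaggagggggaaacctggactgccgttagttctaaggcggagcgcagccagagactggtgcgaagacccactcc
Fanci: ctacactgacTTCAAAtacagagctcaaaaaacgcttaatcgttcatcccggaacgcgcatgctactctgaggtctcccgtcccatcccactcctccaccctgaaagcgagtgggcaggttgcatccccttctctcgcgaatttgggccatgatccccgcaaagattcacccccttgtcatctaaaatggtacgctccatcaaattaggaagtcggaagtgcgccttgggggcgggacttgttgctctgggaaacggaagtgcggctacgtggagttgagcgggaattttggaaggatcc

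The motifs were the CCAAT box, CCAAT, an E2F site, TTTNNCGC, and the cell cycle homology element (CHR), TTTGAA, each searched on both strands. No matches of different motifs overlapped. Fanca had 2 CCAAT matches, which began at -66 and -39 relative to the start, and no match to the others. Fanci had 1 CHR match at -240, and Fancg had none of the 3 motifs. Over all 10 members the CCAAT box was found in 3 (Fanca, Fancf and Fancm), the E2F site in 3 (Fancc, Fancd2 and Fancl) and the CHR in 1, where 37.5%, 4.9% and 18.3% of 33469 rat promoters of the same length held them. These are matches of letters only, and whether they bear on the levels of these genes was not tested.

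The rest of the pathway was read from 36 further genes, of which 34 were found in the table and 33 were tested. By edgeR none was called at 1 week or at 3 weeks, where 0.253% and 0.740% of the genes tested were. DESeq2 on all 12 libraries called none either, where it called 188 and 246 of all genes. An unadjusted p under 0.05 was found for 4 and 3 of the 33, where 18.9% and 21.1% of the genes tested had one. Their median log2 fold change was -0.19 at 1 week, with 11 higher and 22 lower, and -0.003 at 3 weeks, with 16 higher and 17 lower. The summed level of the 26 downstream genes was 207 to 211 normalized CPM in 3wk SBI and 202 to 213 in 3wk SBI + Lac.

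Around the ubiquitination of the Fancd2 and Fanci pair, 5 genes were tested, which place or remove this ubiquitin (Ube2t, Usp1 and Wdr48) or act at other ubiquitin steps of the repair (Rfwd3 and Uhrf1). Their 3-week log2 fold changes lay between -0.18 and 0.18. Those with the largest values were Rfwd3, a ligase of the late repair step (-0.18, SE 0.18, adjusted p = 0.599), and Uhrf1, which recognizes crosslinked DNA (0.18, SE 0.42, adjusted p = 0.846), and Wdr48, the partner of the deubiquitinase Usp1, had -0.14 (SE 0.11, adjusted p = 0.484), all from edgeR. At 1 week all 5 were lower with lactation and none was called. Usp1 then had 15.3 ± 0.723 normalized CPM in 1wk SBI against 12.6 ± 0.618 in 1wk SBI + Lac (SD, n = 3 pools each), with an adjusted p of 0.174 in edgeR.

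Among the nucleases, recombination factors and checkpoint genes downstream, Fan1 came closest to the cutoff at 3 weeks. Fan1, a nuclease that is recruited by ubiquitinated Fancd2 and trims crosslinks, measured 5.04, 7.74 and 6.49 normalized CPM in 3wk SBI against 9.80, 9.42 and 10.6 in 3wk SBI + Lac. The pools did not overlap, and the log2 fold change was 0.60 (SE 0.16, adjusted p = 0.0640, edgeR), below the fold cutoff. Dclre1b, a nuclease of telomeres and forks, had 0.43 (SE 0.28, adjusted p = 0.408), and Brca2, a mediator of homologous recombination, had -0.42 (SE 0.35, adjusted p = 0.521), both from edgeR.

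At 1 week, values of downstream genes in the opposite direction included those of a checkpoint and a translesion gene. Chek1, a checkpoint kinase, had -0.66 (SE 0.51, adjusted p = 0.503), and Mad2l2, a subunit of translesion polymerase zeta, had -0.44 (SE 0.17, adjusted p = 0.171), both from edgeR.

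**Figure D3:**
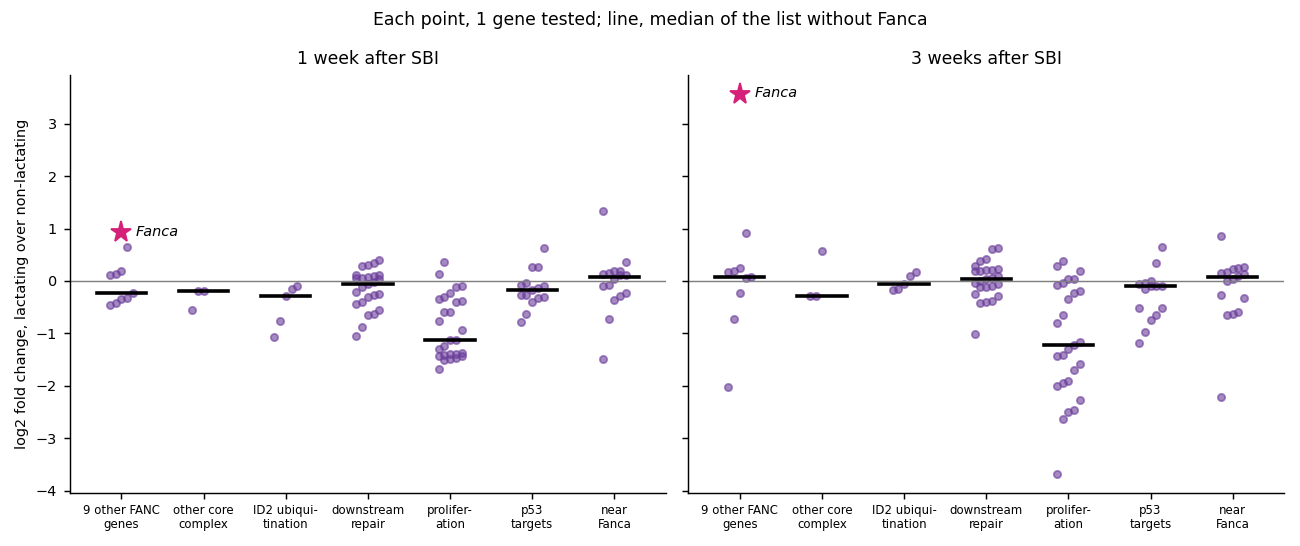
Log2 fold change of lactating over non-lactating rats (vertical axis) for every tested gene of each list (horizontal axis) at 1 and 3 weeks, with the median of each list as a line and Fanca as a star. At 3 weeks Fanca lies at 3.57, the medians of the repair lists lie near 0 and the median of the proliferation genes is -1.23.

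Because many Fanconi anemia genes are expressed with the cell cycle, 27 proliferation genes were read beside them. At 3 weeks 22 of the 27 had lower values with lactation, as did 52.3% of all genes tested. Their median log2 fold change was -1.23. With lactation 7 lay wholly below and 1 wholly above, where 10.4% and 11.9% of the genes tested did. An unadjusted p under 0.05 was found for 12, beside 21.1% of the genes tested. The edgeR fit called 1 of the 27, where 0.740% of the genes tested were called. This was Ccnb2, a mitotic cyclin, with 0.751, 0.619 and 0.840 normalized CPM in 3wk SBI against 0.130, 0 and 0.110 in 3wk SBI + Lac, where its log2 fold change was -3.67 (SE 0.85, adjusted p = 0.0363, edgeR) on 5 counts in the lactating pools. At 1 week 25 of the 27 were lower, as were 50.5% of all genes tested, with a median of -1.12. None was then called by edgeR, and 12 had an unadjusted p under 0.05, where 18.9% of the genes tested had one.

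Fanci thus lay on the same side as most proliferation genes at 3 weeks, and Fanca on the other. Within 3wk SBI, replicate 2 was lowest for Fanci and, of the proliferation genes plotted, for Mki67, Cdk1 and Ccnb2. Top2a was lowest in replicate 1, with 0.965, 1.92 and 4.89 normalized CPM in the 3 pools. The 27 genes summed to 106, 98.8 and 119 there, and to 96.8, 91.7 and 99.8 in 3wk SBI + Lac, so the sums overlapped. In 3wk SBI + Lac replicate 3, a shallow library, 7 of the 27 genes were at 0. Mki67, a marker of cycling cells, had 2.15, 0.805 and 7.84 normalized CPM in 3wk SBI, with replicate 3 far above the others, whereas Fanci in these pools was 1.39, 0.557 and 1.30. In 3wk SBI + Lac, Mki67 had 1.76, 1.28 and 1.76. At 1 week Mki67 was 17.8, 9.51 and 9.84 without and 3.15, 4.34 and 5.85 with lactation, without overlap (adjusted p = 0.193, edgeR), and Fanci overlapped between the same groups. Of the 27 proliferation genes, 14 lay wholly below with lactation at 1 week, where 14.1% of the genes tested did, and Ccnb2 overlapped then as Fanci did, with 2.24, 1.42 and 1.08 without and 0.393, 1.15 and 0.478 with lactation.

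**Figure D4:**
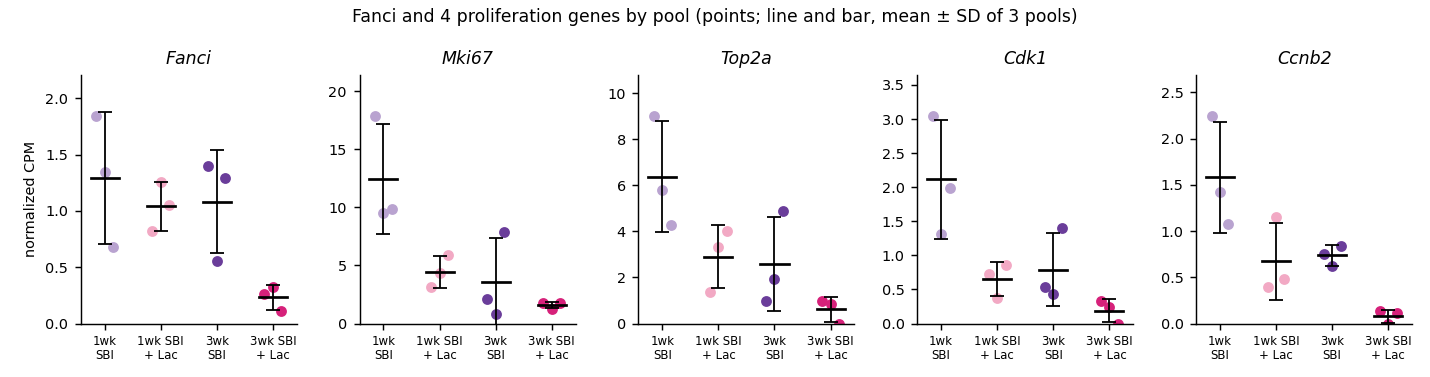
Level of Fanci and of 4 proliferation genes in normalized CPM (vertical axis, from 0) in the 4 groups (horizontal axis), with 1 point per pool and the mean and SD of 3 pools as line and bar. Fanci was low in 3wk SBI + Lac alone (0.110 to 0.325), and Ccnb2 likewise overlapped between the groups at 1 week, whereas the Mki67 pools were already separate then (3.15 to 5.85 with lactation against 9.51 to 17.8 without).

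Genes activated by p53, the factor that answers DNA damage, were read as a further list of 15, and none was called by edgeR in a lactation comparison, where 0.253% of the genes tested were called at 1 week and 0.740% at 3 weeks. An unadjusted p under 0.05 was found for 2 at 1 week and 4 at 3 weeks, beside 18.9% and 21.1% of the genes tested. At 1 week 12 were lower and 3 higher with lactation (median -0.18), and at 3 weeks again 12 were lower and 3 higher (median -0.10). Cdkn1a, an inhibitor of the cell cycle, had 134 ± 42.2 normalized CPM in 3wk SBI against 58.0 ± 19.8 in 3wk SBI + Lac (SD, n = 3 pools each), without overlap, with a log2 fold change of -1.19 (SE 0.48, adjusted p = 0.196, edgeR). At 1 week Cdkn1a had -0.78 (SE 0.47, adjusted p = 0.400, edgeR), with overlap. Sesn1, a stress-induced regulator of growth signaling and 1 of the 3 higher genes, was higher without overlap at 1 week, by 0.62 (SE 0.18, adjusted p = 0.0944, edgeR). At 3 weeks Sesn1 averaged 63.5 ± 12.0 normalized CPM in 3wk SBI against 99.4 ± 23.7 in 3wk SBI + Lac (SD, n = 3 pools each). Of the 15 genes, 3 lay wholly below and 1 wholly above with lactation at 3 weeks, where 10.4% and 11.9% of the genes tested did.

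The neighbourhood of Fanca was examined for a shared difference. In the RefSeq annotation of GRCr8, Zfp276, a zinc finger gene, overlaps Fanca by 2196 bases on the opposite strand, and the library kit keeps strand, but the strand setting of the quantification was not given in the sources used here, so reads of the overlap may be assigned to either gene. Zfp276 measured 3.86, 4.21 and 4.69 normalized CPM in 3wk SBI against 4.53, 5.04 and 4.62 in 3wk SBI + Lac, with a log2 fold change of 0.14 (SE 0.19, adjusted p = 0.720, edgeR). At 1 week its log2 fold change was -0.09, and the pools overlapped.

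On the other side, Spire2, an actin nucleator, had between 0 and 5 counts in every library and was not tested. Next in order are Vps9d1 beyond Zfp276 and Tcf25 beyond Spire2. Vps9d1 had log2 fold changes of 0.37 at 1 week (SE 0.12, adjusted p = 0.116, edgeR), without overlap, and 0.18 at 3 weeks (SE 0.12, adjusted p = 0.431, edgeR). Tcf25 had 0.16 at both times (adjusted p = 0.364 and 0.351, edgeR). Of 18 listed genes that lie near Fanca in mammalian genomes, 16 were tested and none was called by edgeR at either time (unadjusted p under 0.05 for 3 at 1 week and 2 at 3 weeks, beside the same 18.9% and 21.1%), with medians of 0.07 at 1 week and 0.07 at 3 weeks.

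**Figure D5:**
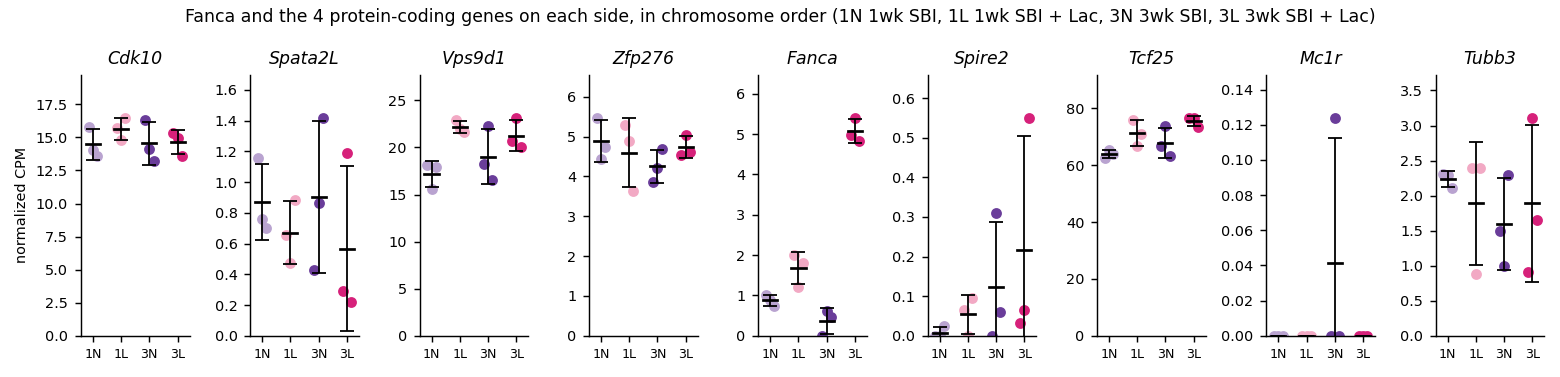
Level of Fanca and of the 4 protein-coding genes on each side in chromosome order, in normalized CPM (vertical axis, from 0, its own scale for each gene), by group (horizontal axis), with 1 point per pool and the mean and SD of 3 pools as line and bar. Fanca separates the 4 groups, whereas Zfp276, which overlaps it, stays between 3.63 and 5.46 in all pools.

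Genes that followed Fanca most closely over the 12 libraries were ranked by Pearson correlation of log2 CPM, as a description of 12 points that share 4 groups and differ in depth. The 12 include the 3-week pools on which Fanca was chosen, so the ranking in part restates each gene's 3-week difference. The highest were Tmem185a (r = 0.971), Rprd1a (r = 0.955), Hist1h4m (r = 0.925), Ndufaf2 (r = 0.921) and Col7a1 (r = 0.920). Hist1h4m is a histone gene with near-identical copies, so its counts are uncertain. Tmem185a followed the order of Fanca over a small range, with group means of 17.1 normalized CPM without and 18.0 with lactation at 1 week, and of 15.8 without and 19.1 with it at 3 weeks. Col7a1, a collagen of anchoring fibrils, had 2.84 and 3.41 at 1 week and 2.09 and 8.19 at 3 weeks.

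Fan1 came 10th of 14598 genes in this ranking, with r = 0.906. The 9 partners were spread from r = 0.580 for Fancg, in place 939, to r = -0.652 for Fanci, in place 14164. Fance had 0.448 and Fancl 0.197, and Fancb, Fancd2 and Fancm, like Fanci, had values below 0.

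Markers of other cells were summed in the same pools. Mammary and milk genes had sums over 10 genes of 39.9, 11.4 and 0.330 normalized CPM in 3wk SBI + Lac, where Fanca was 4.98, 5.40 and 4.84. The pool with 8 of these 10 genes at 0 was 3wk SBI + Lac replicate 3, a shallow library. In 3wk SBI the sums were 2.25, 0.248 and 0.744, and the 2.25 came from the keratins Krt8 (1.93) and Krt18 (0.322). Wap and Csn1s2a, both milk genes, were at 0 in every 3wk SBI pool and at 0.220 and 0.110 in 3wk SBI + Lac replicate 3. These 2 genes were higher without overlap and the other 8 overlapped, where 11.9% of the genes tested were higher without overlap. The part of mammary RNA in the values of Fanca was not tested.

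At 3 weeks the summed level of 7 myofiber genes was 108501 to 145656 normalized CPM without and 155084 to 180086 with lactation, and 3 of the 7 genes were higher without overlap. The 5 T cell genes summed to 14.5, 8.67 and 17.3 without and 3.97, 5.27 and 2.64 with lactation. This separation came from Cd28 alone, a costimulatory receptor, which had 12.7, 6.63 and 12.0 against 3.26, 2.13 and 2.53, while the other 4 genes, with the defining Cd3 chains among them, overlapped and up to 3 of the 5 were at 0 in a lactating pool. The 6 macrophage genes summed to 240 to 611 and to 224 to 437, with overlap. Over all genes tested at 3 weeks, 11.9% were higher and 10.4% lower without overlap.

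At 1 week, too, marker sums separated the groups between which Fanca did not overlap. The 6 macrophage genes summed to 343 to 361 without and 184 to 262 with lactation, with 5 of the 6 lower without overlap. The 4 erythroid genes summed to 242 to 414 and to 556 to 780, with all 4 higher without overlap. The T cell sum was 12.2 to 24.8 and 4.75 to 11.1, again with 1 of the 5 genes separate. Of the 10 mammary and milk genes, 5 were higher and 1 lower without overlap. Their sums of 0.633 to 1.60 without and 1.28 to 3.32 with lactation overlapped. Also without overlap, 2 of the 4 satellite cell genes were lower and 2 of the 7 myofiber genes higher. Over all genes tested at 1 week, 14.3% were higher and 14.1% lower without overlap. The part of these cell types in the values of Fanca and Fanci was not tested.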

How the data were processed

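RNA of the pubocaudalis was sequenced from poly(A)-selected, stranded Illumina libraries, 12 in all, 3 per group, each made by the authors from the pooled RNA of 2 rats. The deposited table holds 1 value per gene and library. At 1 week these deposited values are whole counts, and at 3 weeks they are estimated counts with decimals, deposited without normalization. The submitters' processing notes name Salmon. Its version, the genome build and the annotation were not given in the sources used here, and no genome of that build was used. The authors compared groups with DESeq2.

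Estimated counts were rounded to whole numbers. In R 4.3.3, edgeR 4.0.16 (with limma 3.58.1) was run with TMM scaling, its default filter on low counts and a robust quasi-likelihood fit with a mean for each of the 4 groups, and p-values were adjusted by Benjamini-Hochberg over the 14599 genes tested. Intervals of fold changes are 95% intervals of this fit. The cutoffs were those of the study. With 3 pools per group, p-values measure the spread between pools. The files of replicates differed by more than sampling noise (chi-square per degree of freedom 20.8 or more). Floors are 3 counts and cover counting error only. Of these steps, only the edgeR fit was tested on simulated counts, for the 3-week lactation comparison.

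Alternatives were other normalizations and filters, DESeq2 1.42.0, other cutoffs, unrounded values, thinning to equal depth, fits of fewer libraries and a replicate block. Promoters came from RefSeq (GRCr8), matched by symbol for all 10 members. The members and lists were chosen with earlier results of these data known. Named were all members, per list the called genes or otherwise at most the 3 largest changes at a mean of 1 normalized CPM or more, the 5 genes most like Fanca and the 2 nearest genes on each side. The likeness rank of Fan1, and Mki67 and the other proliferation genes plotted, were added after their values were seen. A gene that this rule names is not reported here.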

Additional observations from a re-analysis of the deposited data

Results flagged for a closer look

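The change of Fanca from 1 to 3 weeks went opposite ways with and without lactation. Every 3wk SBI pool (0 to 0.619 normalized CPM) lay below every 1wk SBI pool (0.726 to 1.01), and every 3wk SBI + Lac pool (4.84 to 5.40) lay above every 1wk SBI + Lac pool (1.22 to 2.00). How many of all genes separate in these ways between the time points was not counted. The log2 changes were -1.05 and 1.60, which differ by 2.64. The difference was not tested, because Fanca was chosen on libraries that enter it.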

How the results depend on the processing

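With a library left out in turn, the 3-week log2 fold change of Fanca ran from 3.29 to 3.80, and under the other alternatives from 3.33 to 3.58. Its 1-week value ran from 0.79 to 1.11 and from 0.90 to 1.04, with adjusted p of 0.0898 to 0.442 and of 0.0509 to 0.272 (edgeR or DESeq2), and it was called in none. The partner median at 3 weeks stayed between 0.02 and 0.14. At 1 week it ran from -0.30 to -0.0022 with a library left out, nearest to 0 without 1wk SBI replicate 1 and then -0.092 without 1wk SBI + Lac replicate 2, and it was -0.085 with at least 10 counts in every library. The count of partners called at 3 weeks became 1 (Fanci) at an adjusted p under 0.1 and with DESeq2 on all 12 libraries, and 0 to 1 with a library left out. From 1 to 3 weeks with lactation it became 1 under these 2 settings and in the fit of only the libraries compared, and 0 to 1 with a library left out. The adjusted p of Fanci at 3 weeks reached 0.210 with a library left out.

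Over all genes, the 108 called at 3 weeks became 371 without the fold cutoff, 232 at an adjusted p under 0.1, 246 with DESeq2 on all 12 libraries, 172 with DESeq2 on 6 libraries, and 50 without the 2 shallowest libraries, a setting chosen after seeing the data. The 37 called at 1 week became 83, 151, 188 and 332 under the first 4 of these, 22 with at least 10 counts in every library, 79 at equal depth and 110 in the fit of the compared libraries alone. With a library left out the counts ran from 22 to 157 at 3 weeks, lowest without 3wk SBI + Lac replicate 1, and from 2 to 235 at 1 week, lowest without 1wk SBI + Lac replicate 1 and highest without 1wk SBI replicate 3. The cause was not tested. Replicate numbers did not pair the pools, since correlations of same-numbered deviations were -0.233 to -0.050, and with a replicate block 64 genes were called at 3 weeks and 8 at 1 week, with 0 partners called.

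Small differences changed sign. Fancl at 3 weeks was -0.13 at equal depth. With a library left out, the 3-week values ran from -0.99 to 0.26 for Fancc, -0.23 to 0.39 for Fancd2, -0.0011 to 0.21 for Fancl and -0.11 to 0.26 for Fancm. The 1-week values ran from -0.0024 to 0.19 for Fancd2, -0.067 to 0.45 for Fancg and -0.61 to 0.029 for Fanci. Depth limits Fancb, Fancg and Fanci most, with under 10 counts in 5, 3 and 3 of the 12 pools, then Fancc with 2, and Fanca and Fancf with 1 each.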
